A study of Homo sapiens with 11 samples.

Results

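The transcription factor ATF4 and 9 genes of the integrated stress response that it controls or acts with were followed in xenograft tumours: ATF4, CHAC1, TRIB3, DDIT3, ASNS, SESN2, DDIT4, VLDLR, CEBPB and ATF5. They were chosen by symbol, as 10 of the 28152 gene symbols in the deposited tables, and all 10 had enough counts to be tested. Cells labelled as the human breast cancer line BT-474, HR+/Her2+, were grown in the mammary fat pad of female athymic nude mice, a strain without a thymus. Each mouse had an implanted estradiol pellet (0.72 mg, released over 90 days). The vehicle group (6 tumours) received mannitol in water under the skin every 4 days, and the evexomostat group (5 tumours) received evexomostat (SDX-7320), an inhibitor of methionine aminopeptidase 2 (MetAP2), at 12 mpk on the same schedule. RNA of 1 tumour portion per animal was sequenced, and the time given for all tumours is day 33. The age of the animals is not given in the sources used here, and mouse cells of the host were part of each portion. The comparison asks which of these genes differ between tumours of treated and vehicle animals.

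The integrated stress response starts when one of several kinases phosphorylates the initiation factor eIF2, for example on amino acid shortage, unfolded proteins in the endoplasmic reticulum or haem shortage. General translation then slows, while messages with short upstream reading frames, such as that of ATF4, are translated more. ATF4 binds DNA with a partner of the C/EBP family and switches on genes for amino acid supply, redox balance and, when stress lasts, cell death. Its own message also changes in amount, which is what was measured here, and a message level says nothing of translation or protein.

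Library totals ranged from 22808033 to 39249329 counts, so 3 counts corresponded to 0.0764 to 0.132 RPM, the unit of the deposited scaled table, which covers counting error only. In vehicle replicate 001 the 100 most abundant genes took 23.9% of the counts, where they took 16.2% to 17.9% elsewhere (10 libraries), and the main results below are given with and without it. Of 11 markers of luminal breast cells checked in the libraries labelled BT-474, 5 averaged under 1 RPM: ESR1 (0.285), PGR (0.0655), GRB7 (0.303), CDH1 (0.456) and KRT19 (0.803). FOXA1, EPCAM and GATA3 averaged 1.05, 3.03 and 6.50 RPM. ERBB2 averaged 53.7, KRT18 148.6 and KRT8 331.6 RPM. ESR1 and PGR encode the hormone receptors that HR+ in the label refers to, and their levels do not bear it out. ERBB2 encodes the receptor that Her2+ refers to, and whether its level bears that out was not tested. The identity of the cells rests on the labels alone and was not tested. The quasi-likelihood test of edgeR called 101 of 16653 genes, or 0.606%, at an adjusted p of 0.05 (0.174% higher and 0.432% lower under evexomostat). Because these are bulk samples, fewer cells of a type and less RNA per cell cannot be told apart.

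None of the 10 genes passed that threshold over all genes, and 3 of 10 (CHAC1, ASNS and SESN2) had an unadjusted p under 0.05, all with higher means under evexomostat, where 4.82% of all tested genes did in that direction, 8.55% in the other and 13.4% in either. Of the other tools run on all libraries, limma-voom also called 0 of the 10, and DESeq2 and limma-voom with quality weights called 1, CHAC1, where they called 3.62% and 6.36% of all genes with an adjusted p. The median log2 fold change of the 10 genes was 0.11, against -0.04 over all tested genes. In SESN2 alone the tumours of the groups did not overlap, which held for 2.97% of all tested genes (1.33% higher, 1.64% lower). When vehicle replicate 001 was left out, CHAC1 passed the threshold, CHAC1 and SESN2 did not overlap between groups, and the median of the 10 genes was 0.29, against -0.00245 over all genes. In that comparison 5.22% of all genes passed (1.98% higher, 3.24% lower) and 8.34% did not overlap (4.14% higher, 4.21% lower).

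**Figure D1:**
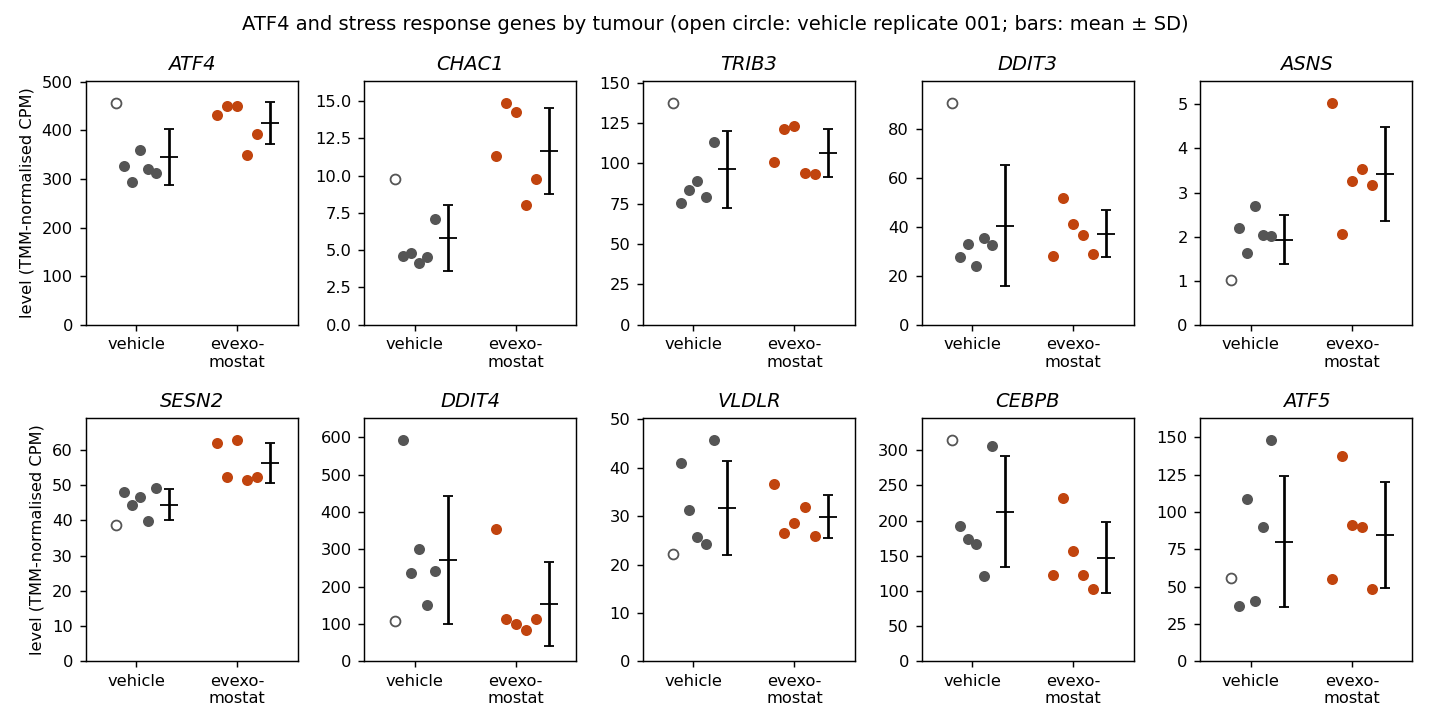
Level of each of the 10 genes in every tumour, in TMM-normalised CPM (vertical axis from 0), with 6 vehicle and 5 evexomostat tumours; the bars give mean and SD. The open circle is vehicle replicate 001, which is the highest vehicle tumour for ATF4, CHAC1, TRIB3, DDIT3 and CEBPB and the lowest for ASNS, SESN2, DDIT4 and VLDLR.

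Levels are given as TMM-normalised CPM, that is, counts scaled to a common total after a correction for composition. Per kilobase of exon, the scale on which genes can be compared with each other, DDIT4 (155.5 ± 98.3 CPM per kilobase, SD, n = 6), ATF4 (137.3 ± 23.2) and CEBPB (108.8 ± 40.6) were the most abundant in vehicle tumours, and their ranges overlapped. TRIB3, ATF5 and DDIT3 followed at 33.2, 31.1 and 31.1, also with overlapping ranges. All tumours were below the lowest CEBPB value of 62.2 for TRIB3 and ATF5, and all but 1 for DDIT3, whose highest, in vehicle replicate 001, was 69.4. SESN2 was at 12.9, VLDLR at 3.46 and CHAC1 at 2.83, and the ranges of VLDLR and CHAC1 overlapped. ASNS was lowest at 0.775 ± 0.226 CPM per kilobase, and the lowest vehicle tumour was at 0.409. The libraries held only 21 to 162 ASNS counts each, so counting error weighs more on it than on the other 9 genes.

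CHAC1 encodes an enzyme that degrades glutathione and is among the targets of ATF4 and DDIT3. In vehicle tumours its lowest, median and highest levels were 4.12, 4.69 and 9.79 CPM. In evexomostat tumours it was at 11.3, 14.9, 14.3, 8.05 and 9.80 CPM (replicates 002, 003, 004, 005 and 007). The 2 groups overlapped through 1 vehicle tumour, replicate 001, while the next highest vehicle tumour, at 7.09 CPM, lay below all 5 evexomostat tumours. On the RPM scale the groups did not overlap, as vehicle replicate 001 was at 8.42 and the lowest evexomostat tumour, replicate 005, at 8.47 RPM. The means were 5.82 ± 2.21 (SD, n = 6) and 11.7 ± 2.91 CPM (SD, n = 5), which differ by 1.01 on the log2 scale (± 0.26 SE, adjusted p 0.0992 by edgeR), about 2.01-fold. Without vehicle replicate 001 it was 1.22 (± 0.21 SE, adjusted p 0.0119 by edgeR), and the groups did not overlap. In the authors' deposited table CHAC1 has a log2 fold change of 1.13 and an adjusted p of 0.00832, the only 1 of the 10 genes under 0.05 there, where 0.952% of genes are (0.416% higher).

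ASNS makes asparagine from aspartate and glutamine and is the classical target induced by amino acid shortage. It was at 1.02, 2.03 and 2.69 CPM (lowest, median and highest vehicle tumour) and at 5.03, 2.07, 3.26, 3.54 and 3.17 CPM under evexomostat, in the same replicate order. Evexomostat replicate 003 lay among the vehicle tumours and the other 4 lay above them. The means were 1.93 ± 0.564 and 3.41 ± 1.06 CPM, 0.82 apart on the log2 scale (± 0.27 SE, adjusted p 0.209 by edgeR), and 0.70 apart without vehicle replicate 001 (adjusted p 0.103 by edgeR).

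CHAC1 and ASNS had the largest positive differences of the 10 genes, and they were also the only 2 whose promoter window held the core of the C/EBP-ATF response element, searched as TGATGNAA on both strands. RefSeq windows from 250 bases before to 50 after a transcription start (GRCh38.p14) were found for all 10 genes, 18 windows in all. The element was found in 1270 of 35116 windows of this length (3.62%). Counted per gene with any window, it was found in 1217 of 27305 genes (4.46%), 2 of the 10 and 16 of the 39 further ATF4 target genes (described below) that had a window (41.0%). Among these 16 were SLC1A4 and MARS1, at log2 fold changes of 0.76 and 0.60, but also ATF3 and GOT1, at -0.32 and -0.19. CBS and PYCR1, the 2 further targets that passed the threshold, were not among them. Whether a match goes with the size of a change was not tested. The 250 bases before each start are shown to place the match, with its letters in capitals; the CHAC1 window is on the plus strand at chr15:40953221-40953470 and that of ASNS on the minus strand at chr7:97872409-97872658.
CHAC1: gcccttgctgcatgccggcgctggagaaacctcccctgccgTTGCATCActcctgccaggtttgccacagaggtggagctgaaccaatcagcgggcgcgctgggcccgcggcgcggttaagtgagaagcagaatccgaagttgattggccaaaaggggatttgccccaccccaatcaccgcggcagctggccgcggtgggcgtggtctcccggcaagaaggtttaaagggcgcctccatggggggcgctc
ASNS: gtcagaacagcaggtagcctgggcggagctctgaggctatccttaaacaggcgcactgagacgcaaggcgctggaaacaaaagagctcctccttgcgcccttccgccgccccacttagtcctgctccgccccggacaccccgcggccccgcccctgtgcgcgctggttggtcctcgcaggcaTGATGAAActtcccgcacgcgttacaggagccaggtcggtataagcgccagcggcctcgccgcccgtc
In CHAC1 the match lies on the reverse strand, where it reads TGATGCAA, and its first base in the window is 209 bases before the start. In ASNS it lies on the strand of the gene, 68 bases before the start used, and the window of the other ASNS start held none. A match is a description of letters, not of binding, and no match says only that these letters are not in the window.

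ATF4 itself was at 294.6, 323.8 and 456.0 CPM (lowest, median and highest vehicle tumour) and at 432.3, 449.4, 451.2, 349.5 and 393.4 CPM under evexomostat. The highest of all 11 tumours on this scale was vehicle replicate 001. In RPM it was at 392.0, below evexomostat replicates 002, 003, 004 and 007 (434.1, 486.4, 466.5 and 398.1). Of the evexomostat tumours only replicate 005 lay within the range of the other 5 vehicle tumours, which ended at 360.4 CPM. Means were 345.2 ± 58.4 and 415.2 ± 43.4 CPM, a log2 fold change of 0.27 (± 0.14 SE, adjusted p 0.447 by edgeR). Leaving out vehicle replicate 001 gave 0.37 (± 0.10 SE, adjusted p 0.0533 by edgeR), just short of the threshold. ATF4 has processed pseudogenes, and how reads shared with them were counted is not given in the sources used here, so its level is uncertain to that extent.

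SESN2, sestrin 2, senses leucine and restrains the growth kinase complex mTORC1. It was at 38.7, 45.5 and 49.0 CPM (lowest, median and highest vehicle tumour) and at 61.8, 52.4, 62.8, 51.3 and 52.3 CPM under evexomostat, so all 5 treated tumours were above all 6 vehicle tumours. The spread was narrow, with means of 44.4 ± 4.28 and 56.1 ± 5.68 CPM. The log2 fold change was 0.34 (± 0.11 SE, adjusted p 0.211 by edgeR), and 0.31 without vehicle replicate 001 (adjusted p 0.0815 by edgeR).

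TRIB3, a pseudokinase that binds ATF4 and dampens it, was at 75.6, 86.1 and 137.3 CPM under vehicle and at 100.6, 121.2, 123.0, 93.7 and 93.4 CPM under evexomostat. The groups overlapped, with vehicle replicates 001 and 007 (113.1 CPM) inside or above the treated range. Its log2 fold change was 0.15 (± 0.17 SE, adjusted p 0.783 by edgeR), and 0.28 (± 0.13 SE, adjusted p 0.208 by edgeR) without vehicle replicate 001.

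DDIT3, also called CHOP, carries the prolonged stress response towards cell death. Its lowest, median and highest vehicle levels were 24.0, 32.8 and 90.7 CPM, against 28.3, 51.7, 41.1, 36.6 and 28.95 CPM under evexomostat. Vehicle replicate 001 accounted for the top of the vehicle range and the next vehicle tumour was at 35.6 CPM. The log2 fold change was -0.12 (± 0.32 SE, adjusted p 0.917 by edgeR), and it turned to 0.29 (± 0.17 SE, adjusted p 0.316 by edgeR) without that library.

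**Figure D2:**
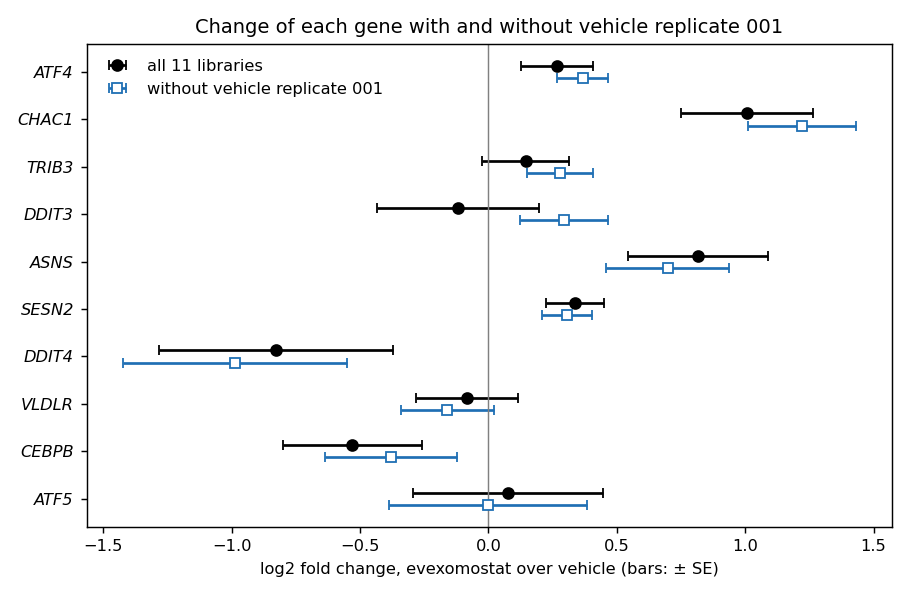
Log2 fold change of evexomostat over vehicle for each gene (horizontal axis, bars give ± SE), with all 11 libraries (black circles) and without vehicle replicate 001 (open squares). CHAC1 moves from 1.01 to 1.22, and DDIT3 crosses 0 from -0.12 to 0.29.

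DDIT4, or REDD1, restrains mTORC1 and is induced by low oxygen and glucocorticoids as well as by ATF4. It was the most variable of the 10 genes by its standard error, at 107.5, 239.2 and 592.8 CPM (lowest, median and highest vehicle tumour) and at 353.9, 114.2, 100.3, 84.2 and 112.7 CPM under evexomostat. Evexomostat replicate 002 was above 5 of 6 vehicle tumours, and the other 4 treated tumours were below all vehicle tumours except replicate 001. Means were 271.8 ± 171.9 and 153.1 ± 112.9 CPM, a log2 fold change of -0.83 (± 0.46 SE, adjusted p 0.466 by edgeR). Without evexomostat replicate 002 it was -1.40, the lowest value when any single library was left out, without vehicle replicate 003 it was -0.44 and without vehicle replicate 001 it was -0.99. None of these passed the threshold.

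VLDLR, a lipoprotein receptor that ATF4 and hypoxia-inducible factors both induce, was at 22.2, 28.4 and 45.7 CPM under vehicle and at 36.6, 26.5, 28.6, 31.9 and 25.8 CPM under evexomostat. All treated tumours lay within the vehicle range, and the log2 fold change was -0.08 (± 0.20 SE, adjusted p 0.907 by edgeR), or -0.16 without vehicle replicate 001. The antisense gene VLDLR-AS1 had 0.135 to 0.404 CPM, and since use of strand is not given in the sources used here, reads of the 2 genes cannot be told apart.

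The hypoxia genes, a list of 23 used beside DDIT4 and VLDLR, had a median log2 fold change of -0.92, and all 23 were negative, as were 9226 of all 16653 tested genes. Only P4HA1, a collagen prolyl hydroxylase, passed the threshold (128.1 ± 46.9 against 49.7 ± 6.19 CPM, log2 fold change -1.37, edgeR adjusted p 0.0233), where 0.432% of all tested genes passed lower. Of the 23, 12 passed without vehicle replicate 001, where 3.24% of all genes passed lower. The summed level of the list was 2576 to 6862 CPM under vehicle and 1844 to 2749 CPM under evexomostat. After each group's mean was removed, VLDLR and the mean log2 level of the hypoxia genes correlated over the 11 libraries (Pearson r = 0.92, permutation p 0.00156, adjusted 0.0156 over the 10 genes; Spearman rho 0.88, permutation p 0.00643, adjusted 0.0643). Without the 2 tumours farthest from the median of the hypoxia genes, vehicle replicates 007 and 003, r was 0.82, and within the 6 vehicle tumours it was 0.99. The adjusted permutation p of r exceeded 0.05 when vehicle replicate 001, 003, 004, 005 or 006 was left out, at 0.0541 to 0.0758, with r from 0.90 to 0.92. For DDIT4 r was 0.59 (permutation p 0.0641, adjusted 0.214; rho 0.65, permutation p 0.0451, adjusted 0.150; r 0.68 without the same 2 tumours). It was 0.81 (permutation p adjusted 0.0337) without vehicle replicate 007 alone. For SESN2 r was 0.66 (permutation p 0.0332, adjusted 0.166; rho 0.69, permutation p 0.0272, adjusted 0.136; r 0.53 without the same 2 tumours). Over the other 7 genes the lowest adjusted permutation p of r was 0.421. No r was computed within the evexomostat tumours alone. There, replicate 002 had the highest summed hypoxia level and the highest VLDLR (2749 and 36.6 CPM). Replicate 007, with a sum of 2691 CPM, had the lowest treated VLDLR, 25.8 CPM. The relations to the hypoxia genes were chosen after the data were seen, and the part of low oxygen in the levels of VLDLR and DDIT4 was not tested.

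**Figure D3:**
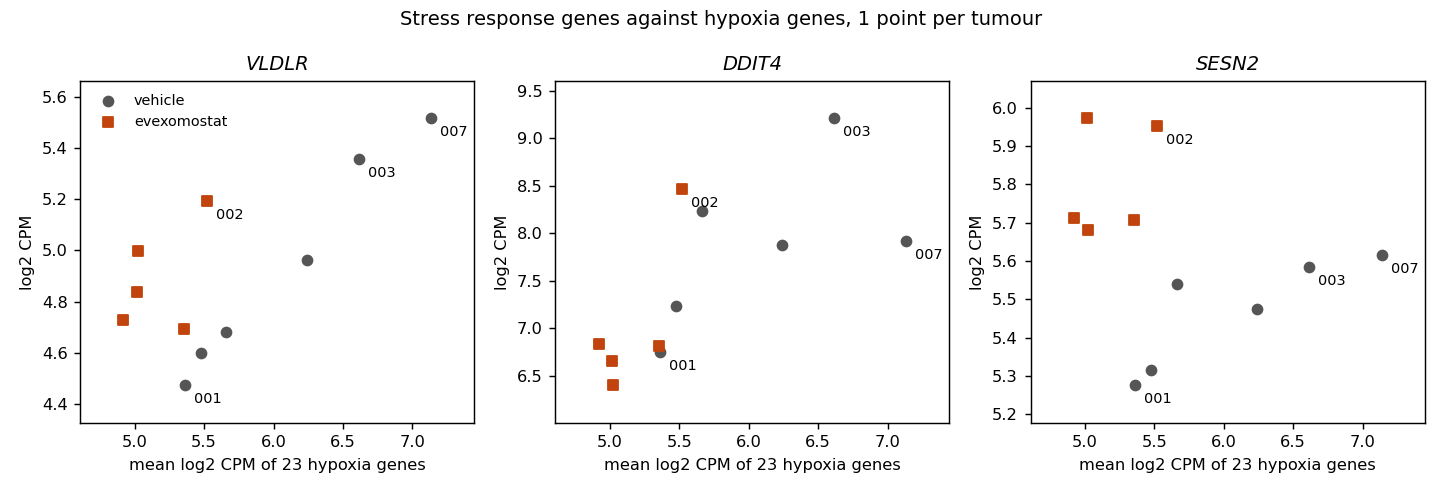
Log2 level of VLDLR, DDIT4 and SESN2 (vertical axes) against the mean log2 CPM of 23 hypoxia genes (horizontal axis), with 1 point per tumour and 4 replicates numbered. VLDLR rises along the axis within the vehicle tumours (r = 0.99), evexomostat replicate 002 holds the highest treated DDIT4 level, and the SESN2 levels of treated tumours lie above those of all vehicle tumours.

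CEBPB, a partner of ATF4 that is also induced in inflammation, was at 121.6, 183.3 and 314.7 CPM under vehicle and at 123.0, 231.4, 156.8, 122.2 and 103.3 CPM under evexomostat. The groups overlapped, with vehicle replicates 001 and 007 (306.6 CPM) above all treated tumours. The log2 fold change was -0.53 (± 0.27 SE, adjusted p 0.428 by edgeR), or -0.38 without vehicle replicate 001 (adjusted p 0.388 by edgeR). CEBPB-AS1, its antisense gene, had 1.29 to 4.12 CPM.

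ATF5, a relative of ATF4 whose message also carries upstream reading frames, was at 37.2, 73.1 and 148.3 CPM under vehicle and at 55.0, 137.6, 91.5, 90.0 and 48.5 CPM under evexomostat. Both groups spread over more than a doubling, and the difference was 0.08 on the log2 scale (± 0.37 SE, adjusted p 0.961 by edgeR). It was -0.00235 without vehicle replicate 001.

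Whether the other 9 genes followed ATF4 from tumour to tumour was examined after removal of each group's mean, over 11 libraries and 9 relations. CHAC1 (r = 0.74, permutation p 0.0213, adjusted 0.0969; rho 0.55, permutation p 0.0963, adjusted 0.398) and TRIB3 (r = 0.73, permutation p 0.0215, adjusted 0.0969; rho 0.51, permutation p 0.124, adjusted 0.398) had the highest r. Without vehicle replicate 001 and evexomostat replicate 004, the 2 farthest in ATF4, r was 0.38 for CHAC1 and 0.33 for TRIB3. Both were weaker without these tumours, but leaving them out also narrows the range of ATF4. Within the 6 vehicle tumours r was 0.64 for CHAC1 and 0.70 for TRIB3. Without vehicle replicate 007 alone r was 0.87 for CHAC1 and 0.89 for TRIB3, past the threshold (adjusted permutation p 0.0478 and 0.0395). DDIT3 had r = 0.66 (permutation p 0.0897, adjusted 0.269; rho 0.26, permutation p 0.446, adjusted 0.737), and -0.00455 without the same 2 tumours. Of the remaining 6, r ranged from -0.50 for VLDLR to 0.52 for CEBPB, and the lowest adjusted permutation p was 0.277.

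**Figure D4:**
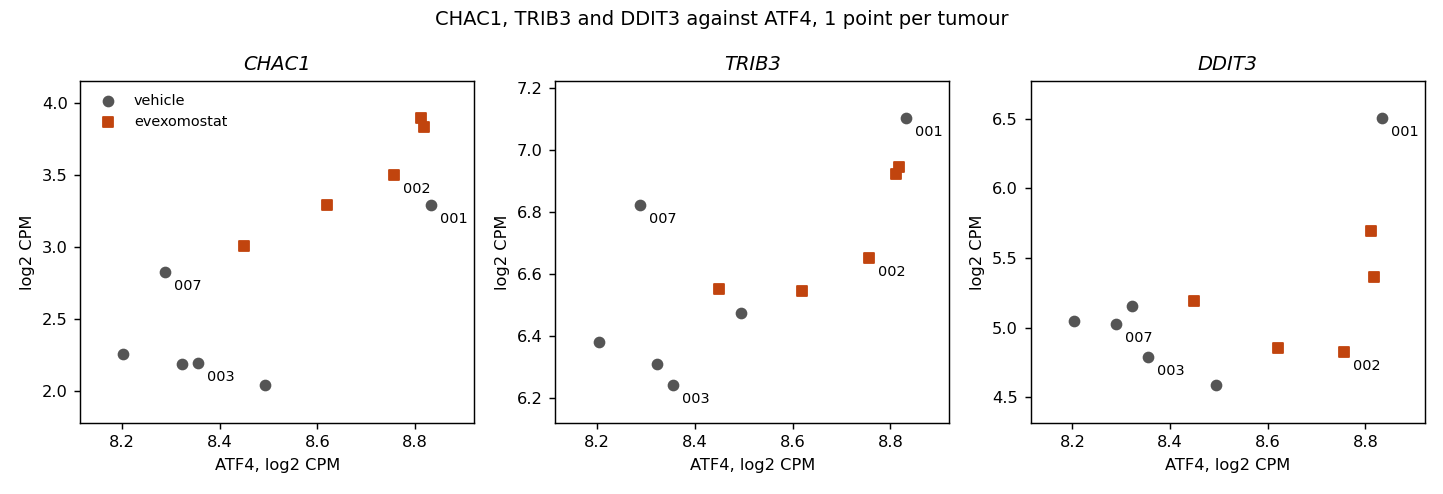
Log2 level of CHAC1, TRIB3 and DDIT3 (vertical axes) against that of ATF4 (horizontal axis), 1 point per tumour. Vehicle replicate 001 has the highest ATF4, TRIB3 and DDIT3 of all 11 tumours on this scale, but in RPM only the highest DDIT3. The 2 highest CHAC1 levels, 14.9 and 14.3 CPM, are in evexomostat replicates 003 and 004.

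Across the 11 libraries, with no group mean removed, the 3 genes most like ATF4 among 13230 were NUBP2 (Pearson r 0.96), ABCF2 (0.96) and CENPM (0.94). Those most like CHAC1 were MRPL38 (0.95), NPRL2 (0.94) and HAX1 (0.93). These are the highest of many correlations, given as a description.

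Further genes known as ATF4 targets, 50 in 4 lists by role with 49 tested, were read from the same fit. Of these, 2 passed the threshold, both higher (0.174% of all tested genes passed in that direction). A positive log2 fold change was found in 35 and a negative one in 14, against 7427 and 9226 of all 16653 tested genes. The median was 0.18 against -0.04 over all genes. In 7 of them the groups did not overlap, all with higher levels under evexomostat (1.33% of all tested genes). With vehicle replicate 001 left out these were 10, of which 8 were higher (4.14% of all tested genes) and 2 lower (4.21%). Both genes that passed belong to the 13 enzymes of amino acid and one-carbon metabolism, whose median was 0.36. CBS, which joins homocysteine to serine, had 9.41 ± 1.69 CPM under vehicle and rose to 21.1 ± 3.39 (1.16 ± 0.16 SE on the log2 scale, adjusted p 0.0138 by edgeR). PYCR1, the last enzyme of proline synthesis, had 31.5 ± 5.06 CPM and rose to 62.5 ± 19.5 (0.99 ± 0.19 SE on the log2 scale, adjusted p 0.0412 by edgeR). Without vehicle replicate 001, 5 of the 13 passed, all higher, where 1.98% of all genes passed higher. They were these 2 with PHGDH (0.80), GPT2 (0.60) and PCK2 (0.79, all log2 fold changes), names given after their values were seen.

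Among 8 amino acid transporters none passed (median 0.35). SLC6A9, a glycine carrier, was at 11.05 ± 4.32 against 22.8 ± 4.40 CPM (log2 fold change 1.05, edgeR adjusted p 0.127), and SLC1A4, which carries neutral amino acids, at 19.6 ± 5.82 against 33.2 ± 5.59 CPM (0.76, edgeR adjusted p 0.126). Among 11 genes of tRNA charging and export none passed (median 0.16), and the largest differences were 0.60 in MARS1 (edgeR adjusted p 0.0953) and 0.43 in GARS1 (edgeR adjusted p 0.212). In the libraries other than vehicle replicate 001, SLC6A9, SLC1A4 and MARS1 passed, at 0.87, 0.65 and 0.61 on the log2 scale. These were 2 of the 8 and 1 of the 11, where 1.98% of all genes passed higher. The 18 stress and death factors, of which FGF21 was too low to be tested, had a median of 0.000259. In that list JDP2 was at 0.51 (edgeR adjusted p 0.266), while SQSTM1, a carrier of cargo for autophagy, was at -0.74 (edgeR adjusted p 0.112) and ATF3 at -0.32 (edgeR adjusted p 0.351). With vehicle replicate 001 left out, 4 of the 17 tested passed: CEBPG (0.45) and EIF4EBP1 (0.59) higher, and SQSTM1 (-0.74) and TNFRSF10B (-0.31) lower. Of all genes, 1.98% then passed higher and 3.24% lower.

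**Figure D5:**
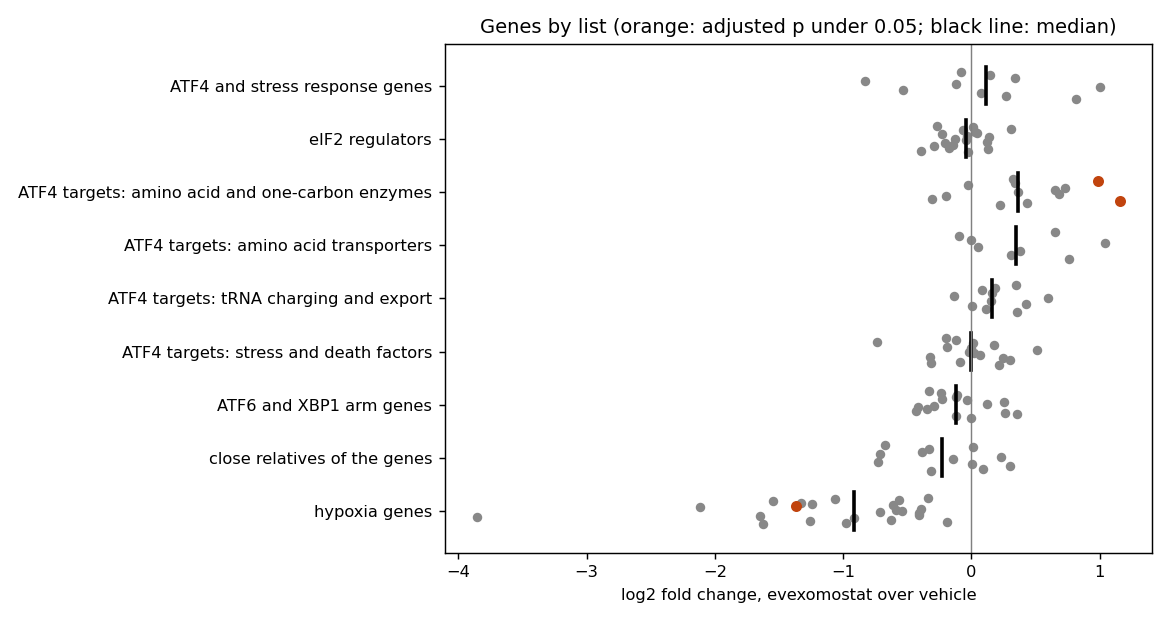
Log2 fold change of every tested gene (points, horizontal axis) in 9 lists, with the list median as a black line and genes past an adjusted p of 0.05 in orange. The medians run from 0.36 for amino acid and one-carbon enzymes to -0.92 for hypoxia genes, with 0.11 for ATF4 and the other 9 genes.

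Upstream of ATF4, none of 19 genes (eIF2, its kinases, phosphatase subunits and exchange factor, with GCN1, IMPACT, DNAJC3, OMA1 and DELE1, which act on or upstream of the kinases) passed the threshold (median -0.04). The kinases EIF2AK1, EIF2AK2, EIF2AK3 and EIF2AK4 were at 0.13, -0.18, -0.29 and -0.15 on the log2 scale, and DNAJC3, an inhibitor of these kinases, was at -0.39 (edgeR adjusted p 0.300). EIF2S2, a subunit of eIF2, was at 948.5 CPM in vehicle replicate 001 and passed without that library (from -0.23 to 0.38, edgeR adjusted p 0.0346). It was the only 1 of the 19 to pass then, where 5.22% of all genes passed. The 16 genes of the ATF6 and XBP1 arms, the other branches of the response to unfolded proteins, had a median of -0.12 and none passed. DNAJB9 and HSP90B1 were at -0.43 and -0.41 and DNAJB11 at 0.26 (edgeR adjusted p 0.345, 0.325 and 0.321). Only MANF (0.47) of the 16 passed without vehicle replicate 001, where 5.22% of all genes did.

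Close relatives of the 10 genes that are not members of the group, 12 in number, had a median of -0.23 and none passed. CHAC2, the paralog of CHAC1, was at 0.00443 on the log2 scale (edgeR adjusted p 0.996), SESN1 at -0.33 and SESN3 at 0.01, beside 1.01 for CHAC1 and 0.34 for SESN2. The SESN1 levels of treated tumours were below those of all vehicle tumours, which held for 1.64% of all tested genes. Without vehicle replicate 001 CHAC2 was at 0.23 (edgeR adjusted p 0.241). Its treated tumours then lay above all vehicle tumours, which held for 4.14% of all genes. DDIT4L was at -0.73 (edgeR adjusted p 0.285). CEBPG (0.45) and GADD45B (0.67), 2 of the 12, passed without vehicle replicate 001, where 1.98% of all genes passed higher. Differences between paralogs were not tested. CEBPG and ATF3 stand in 2 of these lists, as does PPP1R15A.

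Markers of other tissues were read beside these levels. The summed level of 13 skeletal muscle markers was 8.25 to 29.7 CPM under vehicle and 10.7 to 555.6 CPM under evexomostat. Of the 8 tested markers, 7 had an unadjusted p under 0.05 by edgeR and higher means, where 4.82% of all tested genes did. CKM, MYL1, MYLPF, TNNT3 and TNNI2 were too low to be tested. The 555.6 CPM were in evexomostat replicate 005, the treated tumour with the least CHAC1, where CKM was at 0.23 and MYLPF at 0.13 CPM. Sums were 423.1 to 2075 and 518.2 to 1097 CPM for 8 fibroblast markers, 10.5 to 22.4 and 9.92 to 14.04 for 6 endothelial markers, 83.0 to 122.8 and 90.5 to 104.3 for 7 immune markers, and 1.92 to 8.58 and 1.34 to 4.30 for 6 adipocyte markers (vehicle, then evexomostat). None of the tested markers in these last 4 lists passed the threshold, and ADIPOQ and CDH5 were at or near 0. The part of host cells in the 10 genes was not tested.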

How the data were processed

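RNA of 11 tumours was read in pairs on a HiSeq instrument, per the labels' protocols. The deposited count table holds read counts per gene symbol, with no normalization. The submitters' processing notes name bcl2fastq 2.17, STAR 2.7.5c, featureCounts, Subread and edgeR and the builds GRCh37 and hg19, without their roles. Use of strand and handling of mouse reads are not given in the sources used here. The deposited RPM table equals the counts divided by their column totals. The authors' deposited table holds log2 fold changes, p-values and group means per gene, by a test not stated.

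Groups and replicate numbers came from titles, and columns were matched by the code in the description. Where nothing shows that RNA was prepared separately, p-values measure only the spread between these samples. Genes were kept with filterByExpr (minimum count 10, minimum total 15), scaled with TMM and compared with edgeR 4.0.16 in R 4.3.3, without covariates, with Benjamini-Hochberg adjustment over all 16653 tested genes. SEs were derived from the F statistics. Relations used log2 CPM with a prior count of 2 and 100000 two-sided permutations within groups. Exon lengths came from GENCODE 29 (GRCh38), matched by symbol for all 10 genes. Alternatives were DESeq2 1.42.0, limma 3.58.1 (voom, quality weights, or trend on log2 RPM with pseudocounts of 1 and 0.1), scaling by upper quartile or relative log expression, a stricter filter (mean log2 CPM of at least 1) and none, a replicate block and leaving out each library. On counts simulated for this comparison over 16474 tested genes, edgeR recovered 53.1% of 2-fold and 90.6% of 4-fold changes, with 7.95% of its calls false. Of the DESeq2 calls, over 16653 genes, 17.3% were false. The simulated libraries held none that stood apart as vehicle replicate 001 does, so these rates may not hold for the real counts.

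The members and lists were chosen with earlier results of these data known. Beyond the 10 genes, named genes were those of a list past the threshold, or otherwise its 2 largest rises and 2 largest falls with an unadjusted p under 0.05, and the 3 genes most like ATF4 and CHAC1 at a mean log2 CPM of at least 1. The eIF2 kinases and EIF2S2, the paralogs CHAC2, SESN1 and SESN3, and genes named only for passing without vehicle replicate 001 fall outside that rule and were chosen after their values were seen. A gene that the rule names is not reported here.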

Additional observations from a re-analysis of the deposited data

Results flagged for a closer look

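In 40 comparisons of the highest or lowest tumour with the rest of its group, for the 10 genes in both groups, 2 tumours stood apart, and chance alone gives about 1 in 20 groups. Vehicle replicate 001 had 90.7 CPM of DDIT3, while the other 5 vehicle tumours had 24.0 to 35.6. DDIT4 was at 353.9 CPM in evexomostat replicate 002, against 84.2 to 114.2 CPM in the other 4 evexomostat tumours. The same tumour had the highest summed hypoxia level of its group, 2749 CPM, and the highest ASNS, 5.03 CPM. Evexomostat replicate 007 was close to it in the hypoxia sum, at 2691 CPM, with DDIT4 at 112.7 CPM. What set the DDIT4 level apart was not tested.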

How the results depend on the processing

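Over 22 alternatives ATF4, CHAC1, TRIB3, ASNS and SESN2 kept a positive and DDIT4 and CEBPB a negative log2 fold change, and CHAC1, at 0.90 to 1.22 over all 22, passed in 4. The count of the 10 genes past the threshold, 0, became 1 with DESeq2 and with quality weights (CHAC1) and 0 to 1 when each library was left out. The 101 genes in all (29 higher, 72 lower) became 660 with DESeq2 (205 and 455), 1059 with quality weights (384 and 675), and 1 to 865 (1 to 328 higher, 0 to 537 lower) when each library was left out. Higher and lower calls numbered 28 and 42 with upper quartile scaling and 43 and 31, or 38 and 30, on RPM with pseudocounts of 1 and 0.1, so that 40.0%, 58.1% and 55.9% of calls were higher against 28.7%. Both RPM settings moved the median of all genes from -0.04 to 0.08 and 0.10. With them 2 of the 10 genes, CHAC1 and SESN2, did not overlap between groups (3.37% of all genes). The count not overlapping was 1 to 2 and the median of the 10 genes 0.0253 to 0.29 with 1 library left out. Below the threshold, DDIT3 turned to 0.0209 with limma-voom, 0.19 with quality weights, 0.0934 and 0.0970 on the RPM scales and -0.26 to 0.29 with 1 library left out. VLDLR turned to 0.0509 and 0.0539 on RPM and -0.17 to 0.0494, and ATF5 to -0.17 to 0.34, with 1 library left out. With vehicle replicate 001 left out, 5.22% of all genes were called. The called genes per list were then 1 of 19 (eIF2), 5 of 13, 2 of 8, 1 of 11 and 4 of 17 (ATF4 targets). They were 1 of 16 for ATF6 and XBP1, 2 of 12 for relatives and 12 of 23 for hypoxia. Relations to ATF4 ranged from -0.60 to 0.11 for ASNS, -0.32 to 0.46 for SESN2 and -0.37 to 0.34 for DDIT4, and those to the hypoxia genes from -0.41 to 0.40 for CHAC1, -0.61 to 0.27 for TRIB3, -0.27 to 0.47 for CEBPB and -0.38 to 0.38 for ATF5. The cause was not tested.

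Both groups have replicates 003, 004, 005 and 007. Same-numbered libraries deviated together at r = -0.27, 0.07, 0.05 and -0.10 across genes, and 1 of 8 libraries correlated best with its own number. No pairing was seen, but so few pairs cannot exclude a shared origin, and the labels do not say what the number means. The replicate block on these 8 libraries called 1 of the 10 genes (DDIT4, -1.64, 1 lower) and 107 of all genes (0.645%), with 3 of the 10 and 17.2% of all genes not overlapping, a median of 0.28 and DDIT3 at 0.41. These libraries leave out evexomostat replicate 002, the treated tumour with the most DDIT4 (353.9 CPM). They also leave out vehicle replicates 001 and 006, the vehicle tumours with the least DDIT4 (107.5 and 150.9 CPM). The same libraries with no replicate block called 2 (CHAC1 and DDIT4, 1 lower) of 733 genes (4.42%, 225 higher, 508 lower), with the same 3 not overlapping and DDIT3 at 0.43.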
